A study of Mus musculus with 16 samples.

Results

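Immediate early genes are switched on within minutes of a stimulus, from transcription factors that are already present in the cell, and their transcripts are short lived. In skeletal muscle they are known to respond to contraction, stretch, injury, insulin and handling at dissection. Fos and Fosb encode FOS proteins that pair with the JUN proteins encoded by Jun and Junb to form the AP-1 factor, Atf3 encodes a related bZIP factor induced by cell stress, Egr1 encodes a zinc finger factor, Nr4a1 and Nr4a3 encode orphan nuclear receptors, and Ier2 and Ier3 encode a nuclear protein and a regulator of cell survival. These 10 genes were taken by symbol from the 55471 gene identifiers of the count table. All 10 were found, and all 10 passed the filter on low counts that left 14331 genes for testing. The same symbols were read in all 16 libraries.

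The 16 libraries are bulk mRNA of skeletal muscle from 16 male mice, 1 mouse each, on a C57BL/6J background and fed a high fat diet (HFD, 60% of kcal as lipids) for 12 weeks from the age of 12 weeks. The label heterozygous, for a carrier of 1 disrupted copy of Npr1 in every cell (Npr1+/-), covers 10 mice and wildtype (Npr1+/+ littermates) covers 6. Npr1 encodes guanylyl cyclase A (GCA), the receptor of atrial natriuretic peptide. Cages 675, 676, 677 and 678 held 4, 4, 3 and 5 of these mice, and every cage held both labels. Neither the muscle that was taken nor the time of dissection is given in the sources used here, and all mice were on HFD, so diet could not be compared.

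The total count per library ranged from 15273472 to 59682677 fragments, and all values below are normalised read counts in CPM (counts scaled to library size by TMM) unless a log2 scale is named. Summed markers of muscle fibres were between 101097 and 178839 CPM. The targeted gene did not mark the groups. Npr1 had a mean of 13.6 CPM (SD 3.87, n = 10) under the label Npr1+/- and of 12.2 CPM (SD 1.05, n = 6) under Npr1+/+, a log2 difference of 0.09 (SE 0.20). The deposited counts are per gene, so a transcript from a disrupted allele may be counted too. Groups are therefore called by their labels.

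Nr4a1 and Jun stood far above the other 8 genes once counts were divided by gene length. The median over 16 mice was 39.99 CPM per kb for Nr4a1 and 19.8 for Jun. Junb (5.44), Ier2 (4.32), Ier3 (3.50) and Atf3 (3.22 CPM per kb) followed, with Fos (1.69), Egr1 (1.14) and Nr4a3 (1.04) lower and Fosb last at 0.0568 CPM per kb. The ranges over mice of all neighbours in this order overlapped, from Nr4a1 (14.1 to 96.5 CPM per kb) and Jun (10.9 to 35.2) at the top to Nr4a3 (0.126 to 9.10) and Fosb (0 to 0.212) at the bottom. Fosb had 139 counts in all 16 libraries together and 0 in Npr1+/- mouse 8, which allows up to 0.179 CPM there for counting error alone, so its values are the least precise of the set.

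The bases before the start of 6 of these genes are shown with the short element TGACG marked, which the factor CREB is known to bind and which can be compared between the genes. RefSeq windows of GRCm38 were matched for 8 of the 10 genes, and for Egr1 and Ier2 no window was used. Each sequence runs from 5′ to 3′ on the strand of its gene and, except for Nr4a3, ends at the base before the RefSeq start. Capitals mark TGACG, or CGTCA where it lies on the other strand, the first 5 letters of the full element TGACGTCA.
Fos, chr12:85473640-85473889, plus strand: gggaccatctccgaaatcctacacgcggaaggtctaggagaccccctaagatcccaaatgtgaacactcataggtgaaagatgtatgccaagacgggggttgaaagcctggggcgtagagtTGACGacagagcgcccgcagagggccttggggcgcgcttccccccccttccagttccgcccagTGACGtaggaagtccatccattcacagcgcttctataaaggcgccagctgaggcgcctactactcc
Junb, chr8:84978749-84978998, minus strand: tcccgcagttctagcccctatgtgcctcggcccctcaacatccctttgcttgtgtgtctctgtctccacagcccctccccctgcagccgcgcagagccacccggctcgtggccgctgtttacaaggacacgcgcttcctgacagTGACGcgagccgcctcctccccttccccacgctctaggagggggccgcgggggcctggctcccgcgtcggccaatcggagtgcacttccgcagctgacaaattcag
Nr4a1, chr15:101266596-101266845, plus strand: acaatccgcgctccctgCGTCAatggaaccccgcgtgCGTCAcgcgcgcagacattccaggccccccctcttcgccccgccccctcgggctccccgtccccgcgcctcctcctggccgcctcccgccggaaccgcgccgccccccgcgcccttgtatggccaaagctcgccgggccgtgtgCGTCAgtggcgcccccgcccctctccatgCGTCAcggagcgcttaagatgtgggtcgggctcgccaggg
Nr4a3, chr4:48045055-48045152, plus strand: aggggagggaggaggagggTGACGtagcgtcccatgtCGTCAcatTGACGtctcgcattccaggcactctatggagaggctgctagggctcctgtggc
Atf3, chr1:191183334-191183583, minus strand: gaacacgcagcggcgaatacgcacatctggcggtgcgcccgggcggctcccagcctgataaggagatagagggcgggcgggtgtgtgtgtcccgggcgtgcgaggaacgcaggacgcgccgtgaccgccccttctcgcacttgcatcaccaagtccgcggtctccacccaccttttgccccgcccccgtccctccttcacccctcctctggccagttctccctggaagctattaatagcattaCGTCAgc
Jun, chr4:95052223-95052472, minus strand: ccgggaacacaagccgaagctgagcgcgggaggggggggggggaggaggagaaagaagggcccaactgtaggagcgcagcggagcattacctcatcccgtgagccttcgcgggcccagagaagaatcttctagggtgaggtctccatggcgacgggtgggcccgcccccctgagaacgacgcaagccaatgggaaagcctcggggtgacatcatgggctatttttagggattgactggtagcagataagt
The windows of Fos and Junb overlap no annotated gene, and that of Jun lies in the antisense gene Junos. Those of Nr4a1 and Atf3 lie inside the longer annotated span of their own genes, and the last 7 bases of the Atf3 window are exonic. For Nr4a3 only the 98 bases upstream of its annotated first exon are given. TGACG occurred at least once within 250 bases before the start in 6 of the 8 genes (Fos, Fosb, Junb, Atf3, Nr4a1 and Nr4a3) and in 17.8% of 32851 such windows of all genes. Nr4a1 and Nr4a3 held 4 each in the full window, Fos held 2, starting 129 and 66 bases before the start, and Jun and Ier3 held none. For Nr4a3, 3 of the 4 lie in the 98 bases shown and the other lies in the annotated first exon. The full TGACGTCA was in 0 of the 8 windows and in 1.55% of all windows, which overlap with the TGACG matches. TGANTCA, the AP-1 element, was in 0 of 8 (6.75% of all), the CArG box of serum response factor in 0 of 8 (1.47%) and GCGNGGGCG, the EGR element, in Fosb and Nr4a1 (4.70%), each searched on both strands. A match of letters is a description of these windows and not a measured binding site. Elements further upstream, or with other letters than these patterns, would not be found, so a count of 0 does not show that a gene lacks the element.

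The spread between mice was the most visible feature of these genes. On the log2 scale, the SD over the 16 mice was 1.93 for Nr4a3, 1.28 for Fos, 1.04 for Fosb, 1.01 for Egr1 and 0.97 for Atf3. The median SD of all tested genes was 0.38, and these 5 genes lay between the 98.1 and the 99.9 percentile. Nr4a1 (SD 0.72) and Ier2 (0.62) lay at the 91.8 and 85.4 percentile. Junb (0.52), Jun (0.41) and Ier3 (0.32) lay at the 74.9, 55.9 and 36.6 percentile, so the 10 genes ranged from among the most variable to below the median. Counting error alone would give Fos an SD of about 0.12 and Fosb about 0.49 at their mean counts. In bulk tissue, more cells with a transcript cannot be told apart from more transcript per cell.

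Fos was high in a few mice of cages 675 and 676 and low in cages 677 and 678. In cage 675, Fos was 11.8 and 19.5 CPM in the mice labelled Npr1+/- and 8.50 and 1.58 in those labelled Npr1+/+. In cage 676, it was 8.12, 5.24 and 38.9 CPM in Npr1+/- mice 1, 8 and 10 and 5.36 in the Npr1+/+ mouse. In cage 677, the Npr1+/- mouse had 2.63 CPM and the Npr1+/+ mice had 4.25 and 1.79. All 5 mice of cage 678 lay between 1.92 and 3.70 CPM. The highest value was thus 24.6 times the lowest, and the labels overlapped, with 1.92 to 38.9 CPM (median 4.47, n = 10) for Npr1+/- and 1.58 to 8.50 (median 3.27, n = 6) for Npr1+/+.

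The labels overlapped for the other members too. Egr1 ran from 1.19 to 22.9 CPM (median 5.30) in Npr1+/- and from 2.77 to 7.17 (median 4.65) in Npr1+/+ muscle. Junb ran from 6.33 to 25.6 CPM (median 13.3) in Npr1+/- and from 8.16 to 18.3 (median 10.1) in Npr1+/+, and Ier2 from 2.37 to 17.1 (median 7.26) and from 4.07 to 9.16 (median 5.55). For each of these genes the upper end of the Npr1+/- range was a single animal. Fosb was between 0 and 1.32 CPM in Npr1+/- and between 0.180 and 0.621 in Npr1+/+. Ier3 stayed within 2.35 to 6.02 CPM over all 16 mice.

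The highest value of several genes came from the same animal. Npr1+/- mouse 10 had the highest value of 5 of the 10 genes, with Fos at 38.9, Fosb at 1.32, Junb at 25.6, Egr1 at 22.9 and Ier2 at 17.1 CPM. The same animal had the lowest Nr4a3 of all, 0.756 CPM. Npr1+/- mouse 6 led Jun (112 CPM) and Nr4a1 (338 CPM). Npr1+/- mouse 9 was among the 3 lowest for 6 of the 10 genes, with the lowest Nr4a1 (49.3 CPM) and Ier3 (2.35 CPM). In the same mouse the sums of the macrophage (101 CPM), fibroblast (1805), erythroid (509.7), neutrophil (3.08) and B cell markers (2.79) were the highest of all 16 and that of the endothelial markers (205) was the lowest. Mouse 10 also had the highest sum of the 5 adipocyte markers (420 CPM against 33.6 to 338 in the other 15 mice). Its sum of the smooth muscle markers was the highest too. Mouse 6 had 634 CPM of the 8 endothelial markers, second to 697 CPM in Npr1+/- mouse 7 and above 205 to 446 in the other 14. Mouse 6 also had the highest sum of the satellite cell markers and the lowest of the B cell markers. Npr1+/- mouse 8, which led Nr4a3, had the lowest sums of the muscle fibre and satellite cell markers. The part of these cells in the early gene levels was not tested.

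**Figure D1:**
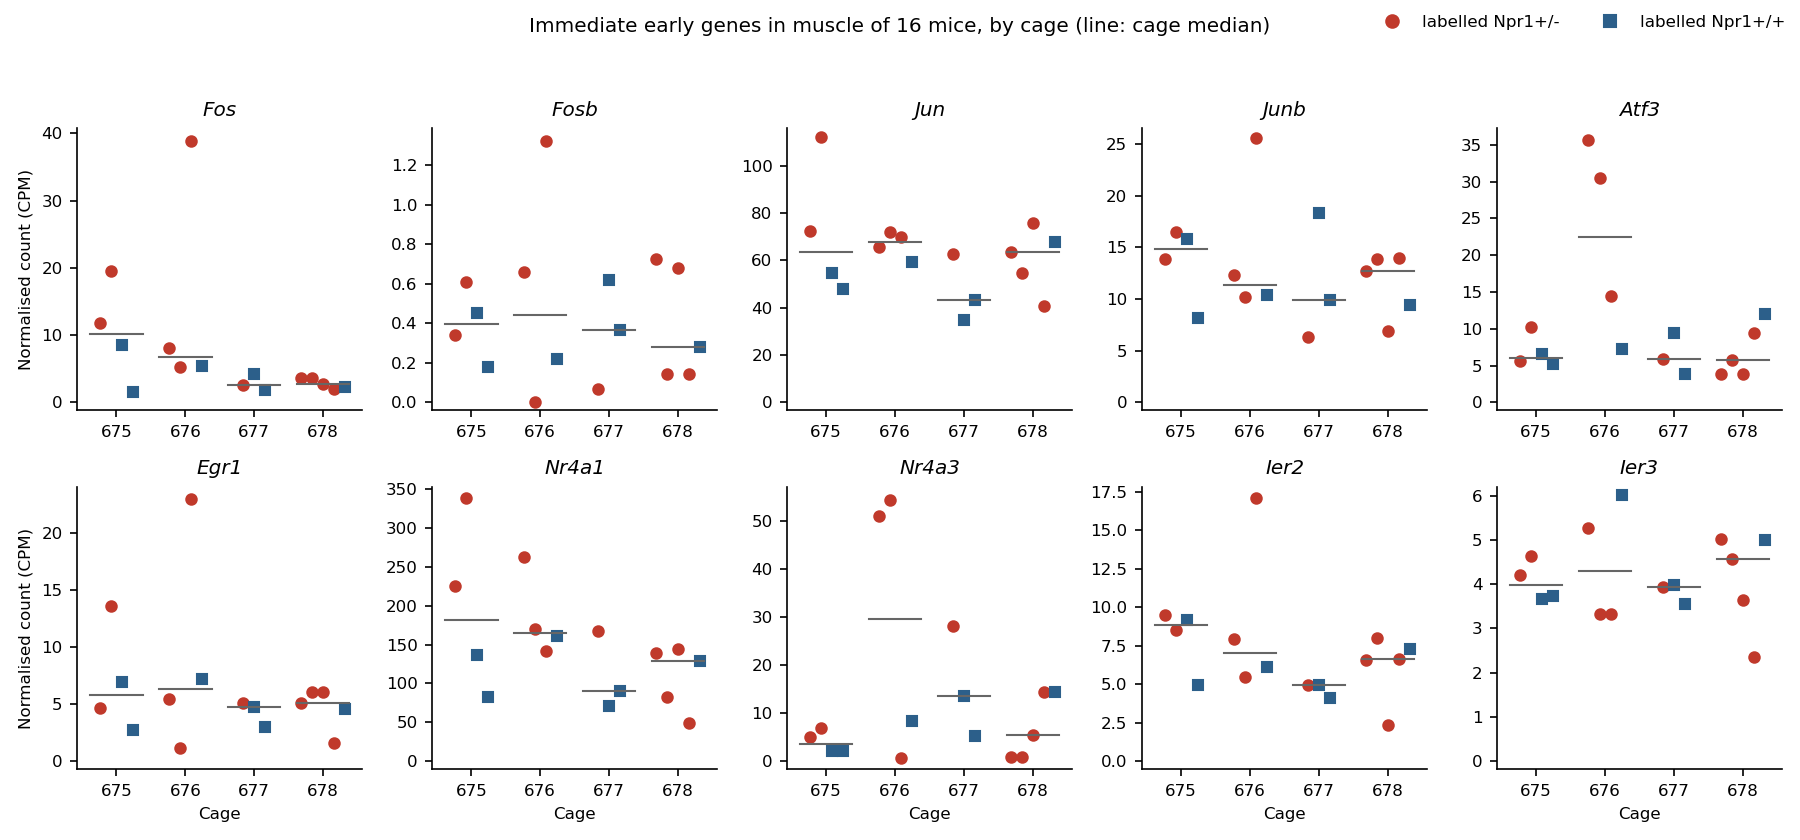
Normalised count (CPM, linear axis) of each immediate early gene in 16 mice, set out by cage, with 1 point per mouse (red circles labelled Npr1+/-, blue squares labelled Npr1+/+) and a line at the cage median. Npr1+/- mouse 10 of cage 676 stands above the rest for Fos, Fosb, Egr1, Junb and Ier2, and Npr1+/- mice 1 and 8 of cage 676 stand above the rest for Nr4a3 and Atf3.

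Nr4a3 had the widest range of the set, from 0.756 to 54.5 CPM, a ratio of 72.1. Its pattern was unlike that of Fos. In cage 676, Npr1+/- mice 1 and 8 had 51.0 and 54.5 CPM, the Npr1+/+ mouse had 8.46 and Npr1+/- mouse 10 had 0.756. In cage 677, values were 28.3 CPM in the Npr1+/- mouse and 13.7 and 5.33 in the Npr1+/+ mice. Cage 675 lay between 2.05 and 6.89 CPM. Cage 678 ran from 0.874 CPM in Npr1+/- mouse 4 to 14.4 in Npr1+/- mouse 9, so cages 676 and 678 each held very low and high animals. Atf3 was highest in the same 2 mice of cage 676 (35.7 and 30.5 CPM) and lay between 3.79 and 14.4 CPM in the other 14.

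Nr4a1 and Jun differed less between mice and more evenly. Nr4a1 was 226 and 338 CPM in the Npr1+/- mice of cage 675, against 137 and 83.0 in its Npr1+/+ mice. In cage 676 it was 263, 169.9 and 141 CPM in Npr1+/- mice 1, 8 and 10 and 161 in the Npr1+/+ mouse. In cage 677 the Npr1+/- mouse had 168 CPM and the Npr1+/+ mice had 71.3 and 90.7. Cage 678 held 139, 82.6, 145 and 49.3 CPM in Npr1+/- mice 2, 4, 7 and 9 and 129 in the Npr1+/+ mouse, so the Npr1+/+ mice were below every Npr1+/- cage mate in cages 675 and 677 only. Jun ranged from 34.8 to 112 CPM, a ratio of 3.22. Counts of Jun and Junb share coordinates with the antisense gene Junos and with Prdx2 on the opposite strand, and whether the counting used strand is not given in the sources used here.

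Whether the genotype label goes with early gene levels was asked with the design of the study's methods, in which edgeR compared the labels after correction for cage and body weight. No immediate early gene passed. Of the 14331 genes tested, 0 were called at an adjusted p under 0.05 (0%), 151 had an unadjusted p under 0.05 (1.05%), and DESeq2 called 6. None of the 10 immediate early genes had an unadjusted p under 0.05, and 9 of 10 estimates were higher in Npr1+/-, with a median log2 difference of 0.25 against -0.01 over all genes. Of these 9 estimates, 4 (Egr1, Atf3, Fosb and Nr4a3) changed sign when 1 mouse was left out, Egr1 for example to -0.0333 without Npr1+/- mouse 10. Fos had the largest estimate, a log2 difference of 1.13 (SE 0.58, unadjusted p = 0.0687, edgeR adjusted p = 1). The estimate lay within 2 SE of 0, and without Npr1+/- mouse 10 the estimate was 0.64.

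The other members gave smaller estimates. Egr1 was at 0.49 (SE 0.55), Junb at 0.38 (0.31), Ier2 at 0.31 (0.33), Nr4a3 at 0.29 (0.97) and Fosb at 0.22 (0.86) on the log2 scale. Nr4a1 was at 0.21 (SE 0.26), Jun at 0.20 (0.18), Atf3 at 0.15 (0.43) and Ier3 at -0.24 (0.22). Leaving out 1 mouse took Ier2 to 0.13 (without Npr1+/- mouse 10) or 0.86 (without Npr1+/+ mouse 4), Junb to 0.24 (without Npr1+/- mouse 10) and Ier3 to -0.0799 (without Npr1+/+ mouse 5). With the label as the only term, Jun had a log2 difference of 0.43 (unadjusted p = 0.0270). With body weight as the only covariate, Fos had one of 1.78 (unadjusted p = 0.00725). Without Npr1+/+ mouse 4, Fos (1.56, unadjusted p = 0.0480) and Atf3 (1.37, unadjusted p = 0.0139) reached the unadjusted level, and none of these values passed adjustment over all genes. Of the marker lists, 2 of 5 erythroid markers were higher and the 1 tested B cell marker was lower in Npr1+/- at an unadjusted p under 0.05, and their part in the early gene values was not tested.

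**Figure D2:**
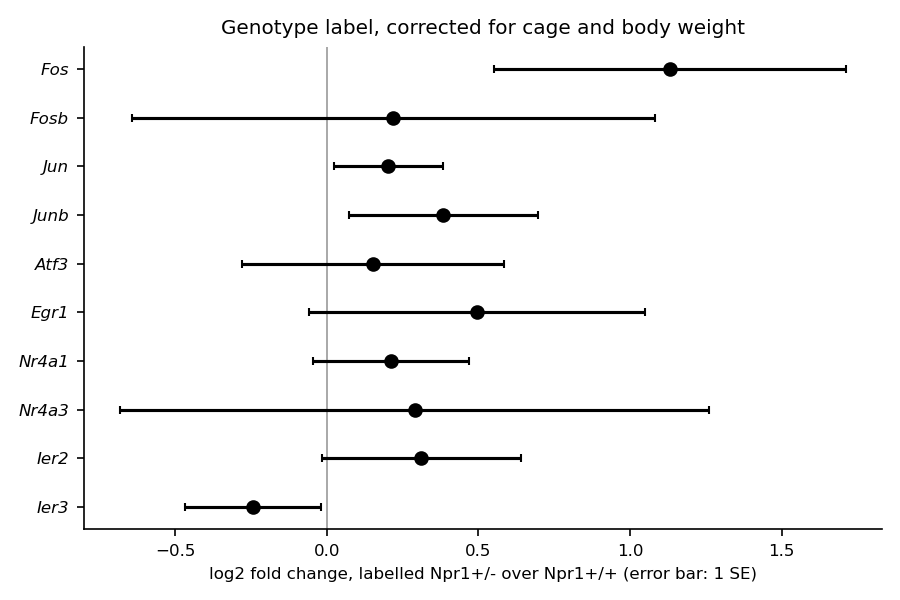
log2 fold change of each immediate early gene in muscle labelled Npr1+/- over Npr1+/+ (x axis), corrected for cage and body weight, with bars of 1 SE (10 against 6 mice). The point of Fos lies at 1.13, 9 of 10 points lie to the right of 0, 4 of them (Egr1, Atf3, Fosb and Nr4a3) changed sign when 1 mouse was left out, and none passed the test.

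Among related genes, Fosl2, which encodes another FOS family protein, had a log2 label difference of 0.87 (SE 0.27, unadjusted p = 0.00473, adjusted p = 1, edgeR). The Kruppel-like factors Klf6 (0.50, SE 0.16) and Klf4 (0.65, SE 0.21) had unadjusted p-values of 0.00598 and 0.00781. In the list of other early response transcription regulators, 5 of 23 tested genes had an unadjusted p under 0.05, all higher in Npr1+/-, with a median of 0.13, against 1.05% of all genes. Among AP-1 and bZIP partners 1 of 10 did, and 0 of 25 upstream activators and 0 of 14 clock genes did in edgeR. Of 25 tested feedback inhibitors 0 did, with Sik1, a kinase that restrains CREB coactivators, at 0.67 (SE 0.36) and Gadd45g, a stress response gene, at 0.63 (SE 0.38). Of 13 secreted and surface genes, 3 did, with the metal binding protein Mt2 (-0.62, SE 0.27) and the peptide Edn1 (-0.69, SE 0.30) lower in Npr1+/-, and Ccn2, a matrix protein named here after its value was seen, higher (0.65, SE 0.29). In the remaining lists, Maff, a bZIP partner, was at 0.39 (SE 0.23), the serum response coactivators Mrtfa and Mrtfb at 0.27 (SE 0.20) and 0.30 (SE 0.30), and the clock genes Per1 and Npas2 at 0.66 (SE 0.35) and -0.35 (SE 0.43). None of these genes passed adjustment. Several of these values rested on 1 mouse. Without Npr1+/+ mouse 4, Mt2 was at -0.10, Npas2 at -0.0567 and Mrtfb at 0.0141, and without Npr1+/- mouse 6 the label difference of Sik1 was 0.30, that of Per1 0.38, that of Mrtfa 0.16, that of Nr4a1 0.00238 and that of Jun 0.0495. Without Npr1+/- mouse 10, Gadd45g was at 0.40, and without Npr1+/+ mouse 5, Maff was at 0.26.

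Body weight and cage were tested in the same fit. For body weight, edgeR called 0 of 14331 genes (0%), with 2449 at an unadjusted p under 0.05 (17.1%), and DESeq2 called 0. Of the 10 immediate early genes, 2 reached that unadjusted level, Nr4a1 with a slope of -0.11 log2 units per g (SE 0.04, unadjusted p = 0.00713, edgeR adjusted p = 0.245) and Jun with -0.05 (SE 0.02, unadjusted p = 0.0401, adjusted p = 0.276). The share of 2 in 10 was near the background. At the same level, 4 of 10 muscle, 3 of 8 endothelial and 2 of 5 satellite cell markers had a negative slope on body weight. A positive one was found for 3 of 8 macrophage, 2 of 5 erythroid, 2 of 6 fibroblast and 1 of 5 satellite cell markers and the 1 tested neutrophil marker. The part of these cells in the slopes of Nr4a1 and Jun was not tested. For cage, 4 genes were called (0.0279%) and 1055 had an unadjusted p under 0.05 (7.36%). At the unadjusted level, 4 of the 10 immediate early genes differed between cages. They were Nr4a1 (p = 0.00222, edgeR adjusted p = 0.546), Atf3 (p = 0.0162), Jun (p = 0.0320) and Fos (p = 0.0437), and 0 of the 10 were called by edgeR. DESeq2 called 78 genes for cage, Nr4a1 among them (adjusted p = 0.0227). Among the related lists, 9 of 23 transcription regulators and 9 of 25 feedback inhibitors had an unadjusted p under 0.05 for cage, as did 5 of 25 upstream activators, 3 of 14 clock genes, 2 of 10 partners and 0 of 13 secreted and surface genes in edgeR. So did 3 of 8 endothelial, 3 of 10 muscle, 2 of 8 macrophage, 2 of 5 smooth muscle, 2 of 4 Schwann cell, 1 of 6 fibroblast and 1 of 5 erythroid markers, the 1 tested neutrophil and the 1 tested B cell marker, and their part in the cage differences of Nr4a1, Jun, Atf3 and Fos was not tested.

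A single mouse decided how many genes passed for both terms. Without Npr1+/- mouse 3, a mouse of 40.1 g in cage 675, edgeR called 3158 of 14284 genes (22.1%) for body weight and 869 (6.08%) for cage. Nr4a1 and Jun were then among the calls for body weight, with slopes of -0.15 (adjusted p = 0.0132) and -0.09 (adjusted p = 0.0243) log2 units per g. They were also among those for cage (adjusted p = 0.0225 for Nr4a1 and 0.0498 for Jun), whereas Fos (adjusted p = 0.340) and Atf3 (adjusted p = 0.105) were not. Without both Npr1+/- mice 1 and 8, 0 genes were called for cage by edgeR and 633 had an unadjusted p under 0.05.

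Which genes vary with Fos from mouse to mouse was asked with the log2 Fos level as a covariate beside the genotype label, so that a slope is in log2 units of a gene per log2 unit of Fos. Of 14330 other genes, 7 passed, all with a positive slope (0.0488%), and 289 had an unadjusted p under 0.05 and a positive slope (2.02%). The gene nearest to Fos was Apold1, an early response gene of endothelial cells, with a slope of 1.03 (SE 0.10, edgeR adjusted p = 1.08e-04). Its slope was thus near 1 log2 unit per log2 unit of Fos, and 1.18 without Npr1+/- mouse 10, the mouse with the highest Fos. Apold1 itself ran from 0.905 CPM in the mouse lowest for it to 17.2 in Npr1+/- mouse 6, whose Fos was below that of mouse 10. Csrnp1, a nuclear early response gene, had a slope of 0.50 (SE 0.07) and Dusp1, a phosphatase that turns off MAP kinases, one of 0.44 (SE 0.06). Depp1, a FOXO target (0.58, SE 0.09), and Btg2, an antiproliferative cofactor (0.43, SE 0.06), completed the nearest 5, and those 4 genes shared an adjusted p of 0.00720. Rhob, a small GTPase (0.32, SE 0.05, adjusted p = 0.0187), and Cebpd, a bZIP factor of inflammation and glucocorticoid response (0.51, SE 0.09, adjusted p = 0.0351), passed as well.

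Dusp1 is given mouse by mouse as an example. In cage 675 it was 144 and 165 CPM in Npr1+/- mice 3 and 6, 119.9 in Npr1+/+ mouse 2 and 61.6 in Npr1+/+ mouse 3, the mouse with the lowest Fos. In cage 676 it was 91.6, 76.3 and 139.6 CPM in Npr1+/- mice 1, 8 and 10 and 98.6 in the Npr1+/+ mouse. In cage 677 it lay between 58.2 and 71.5 CPM and in cage 678 between 31.9 and 88.6. The mouse with the highest Fos was thus below mice 3 and 6 for Dusp1. The calls of Apold1, Csrnp1, Dusp1 and Depp1 held when each of the 16 mice was left out in turn, that of Btg2 in 15, that of Rhob in 11 and that of Cebpd in 3 of 16. With cage and body weight also in the model 0 genes passed and 645 had an unadjusted p under 0.05. Apold1 then had a slope of 0.92 (adjusted p = 0.0584) and Dusp1 one of 0.40 (adjusted p = 0.627).

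**Figure D3:**
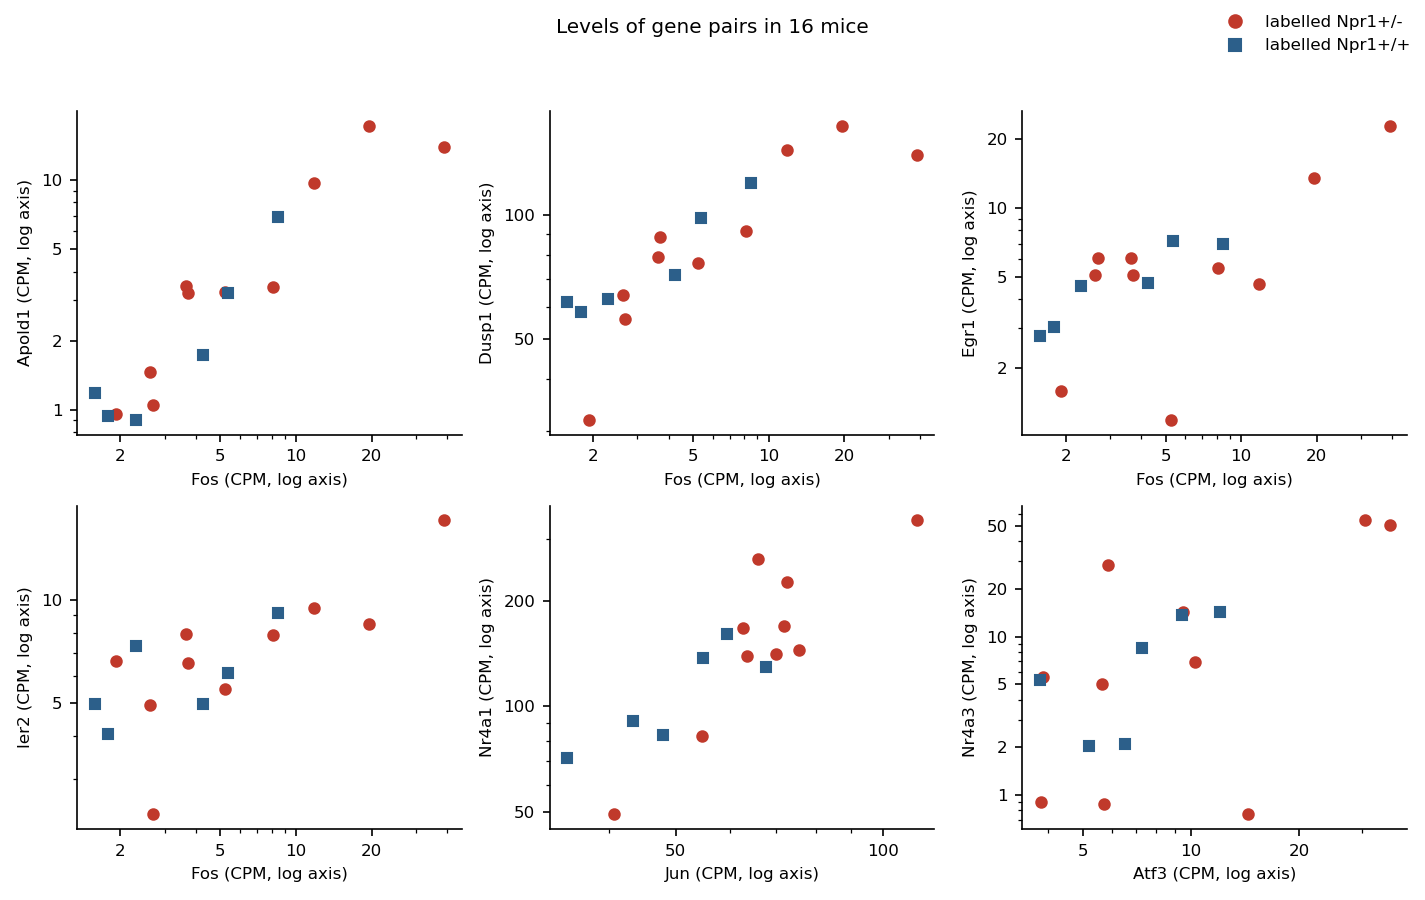
Levels of gene pairs in 16 mice, 1 point per mouse, both axes in CPM on a log scale (red circles labelled Npr1+/-, blue squares labelled Npr1+/+). Apold1 and Dusp1 rise with Fos up to the mouse with a Fos of 19.5 CPM, Egr1 and Ier2 do so less evenly, Nr4a1 rises with Jun, and Nr4a3 is highest in the 2 mice with the highest Atf3.

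The other immediate early genes followed Fos less tightly than these 7. Against the background of 2.02%, 5 of the 9 had a positive slope at an unadjusted p under 0.05, and edgeR called 0 of 9 after adjustment over all genes, whereas DESeq2 called Egr1 and Ier2. Egr1 had a slope of 0.58 (SE 0.12, unadjusted p = 9.6e-05, edgeR adjusted p = 0.125). Ier2 had one of 0.36 (SE 0.08, unadjusted p = 3.3e-04, adjusted p = 0.206), and Junb, a partner of FOS in AP-1, one of 0.30 (SE 0.08, unadjusted p = 8.6e-04, adjusted p = 0.374). The slopes of Fosb (0.49, SE 0.20) and Nr4a1 (0.33, SE 0.12) had unadjusted p-values of 0.0257 and 0.0117. Jun (0.14, SE 0.07), Atf3 (0.26, SE 0.21) and Ier3 (0.06, SE 0.08) were positive and Nr4a3 was at -0.32 (SE 0.49), all with an unadjusted p over 0.05. Without Npr1+/- mouse 6 the slope of Jun was 0.0788, and without Npr1+/- mouse 9 that of Ier3 was 0.00442. The negative Nr4a3 slope rested on Npr1+/- mouse 10, which joins the highest Fos to the lowest Nr4a3, and was 0.05 without it.

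Gene lists of the early response showed the same direction in part. Over all genes, 2.02% had a positive slope at an unadjusted p under 0.05. Of 23 tested transcription regulators 3 were called (Csrnp1, Btg2 and Cebpd), 12 had an unadjusted p under 0.05, all with a positive slope, and the median slope was 0.18 against 0.00 over all genes. Klf2 and Klf4, shear responsive factors of endothelium, had slopes of 0.54 (SE 0.10, edgeR adjusted p = 0.0613) and 0.47 (SE 0.10, adjusted p = 0.192). Of 25 feedback inhibitors, Dusp1 was called and 7 had an unadjusted p under 0.05, all positive. Zfp36, which destabilises early transcripts, was at 0.57 (SE 0.11), Gadd45g at 0.65 (SE 0.14), Sik1 at 0.50 (SE 0.13) and the NF-kappaB inhibitor Nfkbia at 0.25 (SE 0.06), and the slope of Sik1 was 0.29 without Npr1+/- mouse 6. Of 13 secreted and surface genes 0 were called by edgeR and 7 reached the unadjusted level, all positive. The matrix proteins Ccn2 (0.38, SE 0.07) and Ccn1 (0.25, SE 0.08), the urokinase receptor Plaur (0.37, SE 0.09) and Mt2 (0.27, SE 0.09) were among them.

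Partners and upstream factors were counted in the same way. Among 10 tested AP-1 and bZIP partners 0 were called by edgeR. At the unadjusted level, 4 had a positive slope (2.02% of all genes) and 1 a negative one (2.67% of all genes). They were Jund at 0.26 (SE 0.07), Jdp2 at 0.19 (0.06), Fosl2 at 0.26 (0.10), Maff at 0.19 (0.08) and Atf2 at -0.13 (0.05). Without Npr1+/- mouse 6 the slope of Fosl2 was 0.0822. Of 25 upstream activators, the kinases and factors that switch early genes on, 3 had an unadjusted p under 0.05 and all 3 slopes were negative, against 2.67% of all genes at that level with a negative slope. These were the kinase JNK1, encoded by Mapk8 (-0.13, SE 0.05), the factor Creb1 (-0.16, SE 0.07) and the kinase Rps6ka3 (-0.19, SE 0.08), and next came Rps6ka5 at -0.16 (SE 0.09) and Mef2a at -0.07 (SE 0.05). Without Npr1+/- mouse 10 the slopes of Rps6ka3, Rps6ka5 and Mef2a were -0.10, -0.0633 and -0.0388. Of 14 clock genes, 2 did, Clock at -0.16 (SE 0.06) and Dbp at -0.28 (SE 0.12), with Per1, which is also an early gene, at 0.31 (SE 0.15), Nr1d2 at -0.10 (SE 0.05) and Nr1d1 at -0.22 (SE 0.14). The slope of Dbp turned to 0.16 with cage and body weight also in the model. That of Per1 was 0.11 and that of Nr1d2 -0.0635 without Npr1+/- mouse 6, and that of Nr1d1 was -0.10 without Npr1+/- mouse 7. Of all genes with a negative slope the smallest p-values belonged to the lipid kinase Pikfyve (-0.27, SE 0.06), the microRNA gene Mir133a-1 (-0.47, SE 0.11) and the receptor Lpar6 (-0.36, SE 0.08), with adjusted p-values of 0.176, 0.206 and 0.245 in edgeR.

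Marker lists give the tissue background of these slopes. None of the 8 endothelial, 10 muscle, 8 macrophage, 6 fibroblast, 5 satellite cell, 5 smooth muscle or 4 Schwann cell markers had an unadjusted p under 0.05 against Fos in edgeR, while 2 of 5 adipocyte and 2 of 5 erythroid markers did, both with positive slopes. Of 6 neutrophil markers 1 was tested, and of 4 B cell markers 1, without an unadjusted p under 0.05. Summed neutrophil and B cell markers were at most 3.08 and 2.79 CPM in any library. The part of fat or blood in the Fos slopes was not tested.

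**Figure D4:**
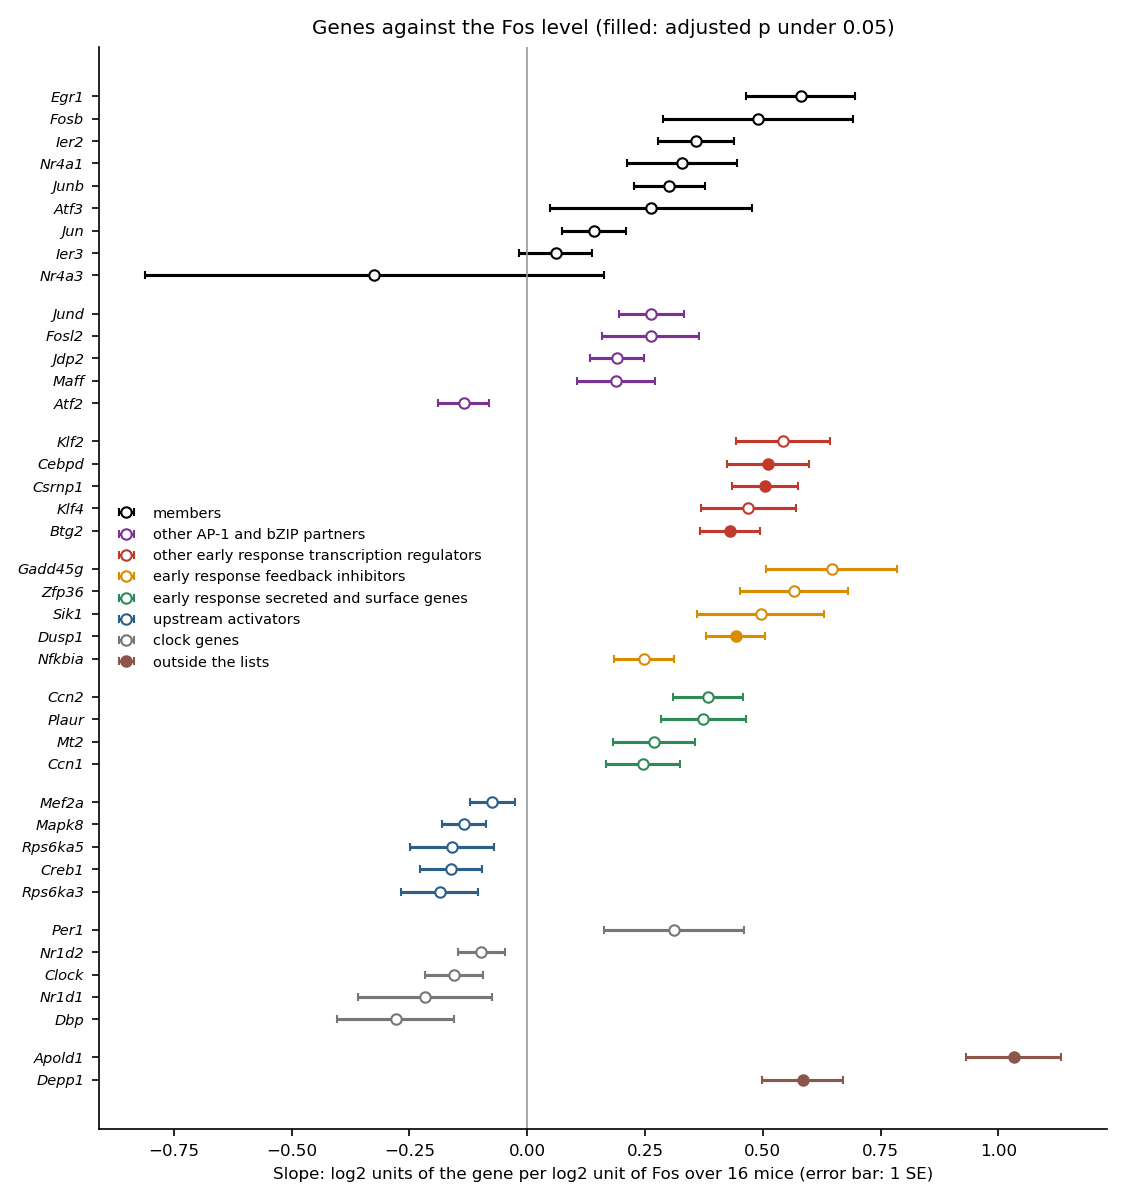
Slope on the Fos level over 16 mice of the members, of named genes of each list and of the nearest genes outside the lists (x axis, log2 units per log2 unit of Fos, bars of 1 SE), grouped by list in colour, with filled points where the adjusted p was under 0.05. Csrnp1, Btg2, Cebpd, Dusp1, Apold1 and Depp1 are filled (Rhob, which also passed, is not drawn), whereas the 9 immediate early genes at the top are open.

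The same fit was then made with every other immediate early gene in place of Fos, after the data had been seen. With Jun as the covariate, 2340 genes passed in edgeR, 1300 of them with a positive slope (9.07%). With the rank of Jun in place of its level edgeR called 0, and 4377 genes had an unadjusted p under 0.05. Nr4a1 was the 1 of 9 members called, with a slope of 1.63 (SE 0.27, adjusted p = 0.0256). A count of 1 in 9 was near the 9.07% of all genes called with a positive slope on Jun. Egr1 and Fos had slopes of 1.37 (SE 0.64, adjusted p = 0.135) and 1.74 (SE 0.88, adjusted p = 0.163) on Jun. Of the genes with a positive slope, those nearest to Jun outside the set were Sik1 (2.17, SE 0.30), Enc1, an actin associated protein (1.86, SE 0.29), Amotl2, a junction protein (1.67, SE 0.27), Atp2a2, the calcium pump of slow fibres (1.52, SE 0.26), and Avil, an actin binding protein (1.32, SE 0.23), with adjusted p-values of 0.0103 to 0.0257. Among the 1040 genes called with a negative slope, Mrpl19 (-0.82, SE 0.13) had the smallest p-value in edgeR. Without Npr1+/- mouse 6 or mouse 9 the count for Jun was 0, without Npr1+/+ mouse 1 it was 1, without Npr1+/- mouse 8 it was 3352, and it was 363 with cage and body weight in the model, where Nr4a1 had a slope of 1.33 (adjusted p = 0.0496).

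With Nr4a1 as the covariate, 22 genes passed, 19 of them with a positive slope (0.133%). Jun was among them with a slope of 0.45 (SE 0.08, edgeR adjusted p = 0.0476). Tob2, an antiproliferative protein (0.90, SE 0.13, adjusted p = 0.0171), Castor1, an arginine sensor of the mTORC1 pathway (0.72, SE 0.11, adjusted p = 0.0350), Sik1 (1.08, SE 0.18), Avil (0.72, SE 0.12) and the arrestin Arrdc2 (1.22, SE 0.21) were nearest to Nr4a1, the last 3 with an adjusted p of 0.0402. The slopes of Fos (0.94, SE 0.46) and Egr1 (0.61, SE 0.36) on Nr4a1 were not called. The slope of Egr1 without Npr1+/- mouse 9 was 0.31 on Nr4a1 and 0.90 on Jun. This count also turned on single mice, from 0 without Npr1+/- mouse 6 to 2784 without Npr1+/- mouse 7. Both of these mice had the highest endothelial marker sums.

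At an unadjusted p under 0.05, 20.4% of all genes had a positive and 15.5% a negative slope on Jun. Of the 8 endothelial markers, 4 had a positive slope on Jun at that level and edgeR called 0. Of the 5 satellite cell markers, 3 had a positive and 2 a negative one, and 4 were called. Of the 10 muscle markers, 4 had a positive and 2 a negative one, and 5 were called. For Nr4a1 the shares over all genes were 16.2% positive and 13.1% negative. There, 3 of 8 endothelial markers were positive, satellite cell markers were 3 positive and 1 negative of 5, and muscle markers were 3 positive and 2 negative of 10, with 0 called in edgeR. Of 5 smooth muscle markers, 2 were negative on Jun, 1 of them called, and 1 was positive and 1 negative on Nr4a1. The 1 tested neutrophil and the 1 tested B cell marker were negative on both genes, and 1 of 6 fibroblast markers was negative in each fit. On Jun, the neutrophil and the fibroblast marker were called. On Jun, 1 of 5 adipocyte markers was positive, and 0 of 8 macrophage, 0 of 5 erythroid and 0 of 4 Schwann cell markers reached the unadjusted level on either gene in edgeR. The part of these cells in the slopes of Jun and Nr4a1 was not tested.

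Atf3 and Nr4a3 were both highest in Npr1+/- mice 1 and 8, a pair chosen after these values were seen. On Atf3, Nr4a3 had a slope of 1.04 (SE 0.31, unadjusted p = 0.00345, edgeR adjusted p = 0.193), and without the 2 mice that were highest for both it was 0.70 (unadjusted p = 0.333). In the other direction, Atf3 had a slope of 0.29 on Nr4a3 (SE 0.09, edgeR adjusted p = 1), which was not called either. No gene passed against Atf3 in edgeR, with 2647 at an unadjusted p under 0.05, and DESeq2 called 288. At an unadjusted p under 0.05, 7.12% of all genes had a positive and 11.3% a negative slope on Atf3. Of 8 endothelial markers 5 were negative at that level, while 5 of 8 macrophage and 5 of 5 erythroid markers were positive. So was 1 of 6 fibroblast markers, and 2 of 10 muscle, 1 of 5 smooth muscle and 1 of 4 Schwann cell markers were negative. None of the satellite cell, adipocyte, neutrophil or B cell markers reached that level in edgeR, and the part of these cells in the Atf3 slopes was not tested. With Fosb, Junb, Egr1, Ier2, Ier3 or Nr4a3 as the covariate 0 genes passed in edgeR, with between 190 (Nr4a3) and 2939 (Ier2) at an unadjusted p under 0.05.

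The slopes of the 10 genes on each other differed. Fos, Fosb, Junb, Egr1 and Ier2 had positive slopes on each other in all 20 ordered pairs, of which 18 had an unadjusted p under 0.05. These 5 genes were grouped after their slopes had been seen, so the count describes them and supports nothing. The share of all genes with a positive slope at that level was 1.06% on Fosb, 2.02% on Fos, 7.83% on Egr1, 8.36% on Junb and 8.6% on Ier2. On Ier2, 5 of 5 erythroid and 4 of 5 adipocyte markers were positive and 3 of 8 endothelial markers negative. On Junb, 4 of 5 erythroid and 3 of 5 adipocyte markers were positive. On Egr1, 3 of 5 adipocyte, 3 of 5 satellite cell and 4 of 10 muscle markers were positive. On Fosb, 1 of 8 endothelial markers was positive. Other marker lists held fewer in either direction. The part of these cells in these slopes was not tested. Jun and Nr4a1 were the pair whose slopes passed adjustment in both directions. When each mouse was left out in turn, the slope of Nr4a1 on Jun was called in 13 of 16 fits and that of Jun on Nr4a1 in 3 of 16, with an adjusted p of up to 0.414. Nr4a3 had positive slopes on Atf3, Nr4a1 (0.49) and Ier3 (0.45) and negative slopes on Jun (-0.13), Fos, Fosb, Junb, Egr1 and Ier2, none called. Npr1+/- mouse 10 had the lowest Nr4a3 and the highest Fos, Fosb, Junb, Egr1 and Ier2. Of these negative slopes only that on Fos was refitted without this mouse, and it was then 0.05. Ier3, the least variable gene, had slopes between -0.04 and 0.46 on the other 9.

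**Figure D5:**
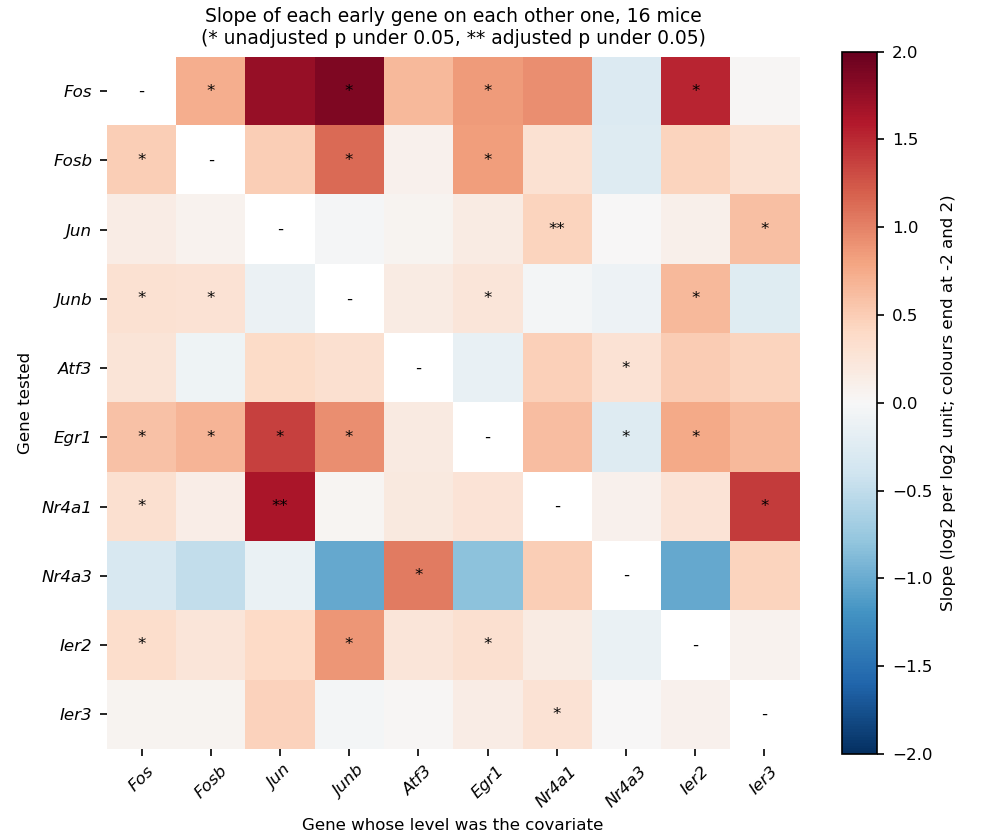
Slope of each immediate early gene (rows) on the level of every other one (columns) over 16 mice, as colour from -2 (blue) to 2 (red) log2 units per log2 unit, with 1 star for an unadjusted and 2 stars for an adjusted p under 0.05. Stars gather among Fos, Fosb, Junb, Egr1 and Ier2, and the double stars join Jun and Nr4a1.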

How the data were processed

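RNA of skeletal muscle from 16 male mice was sequenced as paired ends of mRNA libraries. The authors deposited raw counts of fragments per gene. Per the labels and the study's methods, reads were aligned to GRCm38 with STAR 2.7.2b and counted over GENCODE genes with featureCounts (version 1.6.4 in the submitters' processing notes). The labels and the methods name different library kits, so whether strand was kept is not settled here. The deposited gene length served for values per kb.

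Symbols were paired with 55144 of 55471 identifiers. Genes were filtered with filterByExpr by label, scaled by TMM and fitted with edgeR 4.0.16 (quasi-likelihood, robust, R 4.3.3) with cage, body weight and genotype label as terms, and p-values were adjusted by Benjamini-Hochberg over all tested genes at a threshold of 0.05. SE is the log2 change divided by the square root of F. The Fos level in the second model is its log2 CPM with a prior count of 2. DESeq2 1.42.0 was an alternative, beside other scalings, filters, covariates and leaving out each mouse in turn.

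The 10 genes and all gene lists were chosen with earlier results of these data known. Named are all 10 members, the 5 genes with the smallest p and a positive slope on Fos, the 3 with a negative one, and in each related list up to 5 genes for Fos and 2 for the label. Rhob and Cebpd complete the 7 calls. A gene of the secreted and surface list that this rule names is not reported here. The steps were tested on simulated data made from these libraries. In the label comparison (14159 genes), 179 of 200 changed genes were recovered with 11 false calls, and in the Fos model (14158 genes) 199 of 200 with 8. Planted label differences were larger than the estimates of the 10 genes in the label fit. Planted Fos slopes were larger than those of all called genes except Apold1. Counts were drawn gene by gene, without differences between cages or body weights and without variation shared by genes. Recovery of smaller changes, or with such variation, was not measured.

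Each library is taken as 1 mouse from its label. Where nothing says that samples were handled apart, p-values measure only the spread between these samples. Npr1+/- mice 2 and 9 carry the same cage and body weight labels, and no 2 libraries held identical counts. The limit given for a count of 0 (3 counts) covers counting error only. Promoter windows are RefSeq's, on GRCm38.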

Additional observations from a re-analysis of the deposited data

How the results depend on the processing

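Of the values that answer a comparison, 32 kept their side of the threshold and stayed within 1.5 times under other settings, 19 fell and 17 rose; of the single genes, 843 kept, 48 lost and 25 gained their call and 4 changed sign. The cause of these shifts was not tested. For the genotype label, DESeq2 called 6 genes and no filter on low counts 8. For cage, DESeq2 called 78, no filter 23, at least 10 counts in every library 1, library size alone 0, and leaving out both Npr1+/- mice 1 and 8 also 0. For the Fos level, DESeq2 called 35, no covariate 13, the rank of Fos 4, and label, cage and body weight together 0; with another gene in place of Fos, Jun gave 2340, Nr4a1 22, and Atf3, Egr1, Fosb, Ier2, Ier3, Junb and Nr4a3 each 0. For the Jun level, label, cage and body weight gave 363, library size alone 3511 and the rank of Jun 0. For the Nr4a1 level, the values were 51 (at least 10 counts), 1624 (DESeq2), 1 (label, cage and body weight), 545 (library size alone), 1683 (no covariate), 382 (no filter), 0 (rank) and 7 (RLE size factors). For the Atf3 level, DESeq2 gave 288 and no filter 1. Dbp had a Fos slope of 0.16 with label, cage and body weight. All settings of the Jun, Nr4a1 and Atf3 levels were chosen after seeing the data, as was leaving out 2 mice together.

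Mice of both labels that carry the same replicate number share only a number: over 6 such pairs the mean correlation of their deviations was 0.08 (0.03 to 0.17, 1 of 6 over 0.1), and 0 of 6 Npr1+/+ mice correlated best with their own number. With the replicate block in place of cage, 2 genes were called for the label, Ier3 had a log2 difference of 0.14 and Nr4a3 one of -0.47. With the replicate block beside the label, 8 genes were called for Fos, 0 for Jun and 1 for Nr4a1, and Nr4a3 had a Fos slope of 0.10. The cage test was not run with the replicate block.

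Leaving out each mouse in turn gave 0 to 3 calls for the label, 0 to 869 for cage, 0 to 3158 for body weight, 5 to 11 for Fos, 0 to 3352 for Jun, 0 to 2784 for Nr4a1 and 0 to 1 for Atf3. Label differences that changed sign ranged from -0.29 to 1.37 for Atf3, -0.0333 to 0.73 for Egr1, -0.37 to 0.80 for Fosb, -0.0675 to 0.23 for Npr1 and -0.55 to 1.83 for Nr4a3, and the Fos slope of Nr4a3 from -0.53 to 0.0524. Body weight slopes that did so ranged from -0.0160 to 0.117 for Atf3, -0.0467 to 0.0451 for Egr1, -0.0107 to 0.109 for Fos, -0.0343 to 0.0818 for Fosb, -0.00995 to 0.0828 for Ier2 and -0.221 to 0.0224 for Nr4a3. At these depths Fosb, with 0 to 21 counts a library, is the member that counting error limits most.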
